A study of Mus musculus with 15 samples.

Results

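Lachnospiraceae are a family of obligately anaerobic bacteria of the class Clostridia that live in the large bowel of mice and humans. Many of them ferment plant polysaccharides, and several named genera of the family release butyrate, a short-chain fatty acid used as fuel by colonic epithelial cells. Much of the family in mice has not been cultured, so a reference database can often place a sequence in the family but in no genus. The bacteria described here are of that kind, and what each of them ferments or produces cannot be read from their family name.

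The members were all amplicon sequence variants (ASVs, distinct 16S rRNA gene amplicons) whose taxonomy string stopped at Lachnospiraceae, with no genus entry. With at least 1 count over 15 stool libraries there were 66 such ASVs, of 190 in the family and 507 in the whole table. All 66 carried the same string, which placed them in the phylum Bacillota and the order Lachnospirales. A further 19 Lachnospiraceae ASVs had the place holder Incertae Sedis as their genus and were not members. ASVs are numbered by their total count over all 507. Several ASVs may come from 1 bacterium, since a genome can carry more than 1 copy of the 16S rRNA gene, so the members are not independent of each other.

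The stool came from knockout mice that were littermates and lacked Gpr15l, the gene of an epithelial peptide that attracts lymphocytes through the receptor GPR15. The sample titles name Gpr15 in its place, and the series text was followed. Acute colitis was induced with dextran sulfate sodium (DSS), a chemical irritant that damages the lining of the colon. Mice received rectal doses daily between day 3 and day 9, either of recombinant human GPR15L or of the buffer alone (phosphate-buffered saline, PBS). The groups were the GPR15L arm before DSS (libraries 1 to 3), the PBS arm before DSS (libraries 4 to 6), the GPR15L arm after DSS (libraries 8 to 11) and the PBS arm after DSS (libraries 12 to 15). Every group lacked the gene, so nothing here compares knockout with wild-type mice, and there was no group without DSS at the later time. The samples are labelled male, while the design text speaks of both sexes, and no age is stated in either.

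Libraries held 48847 to 197433 counts, of which 0.00101% to 1.36% were mitochondrial, chloroplast or eukaryotic or had no phylum. With 3 counts as the limit that a count of 0 allows, an ASV absent from a whole group could still have held 0.000912% of counts in the GPR15L arm at either time, 0.000872% in the PBS arm before DSS and 0.00128% in the PBS arm after DSS, counting error alone considered. Folds against a group at 0 were set against that limit and are lower bounds. Library 7, titled as PBS after DSS, bears a library name from the run of the libraries collected before DSS. It was kept out of the comparisons, and the main counts and calls that it changes are also given with it as titled. Time and the run of library names coincided in the other 14, so they cannot be told apart. Mice shared cages of 3 to 4 animals, and the labels do not tie libraries to cages, so cage and arm cannot be told apart either and p-values treat mice as independent that may not be. The labels do not say which libraries before and after DSS came from the same mouse, so the times were compared as separate groups.

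The 66 members together held 60887 counts, 4.34% of all counts and 31.8% of those of their family. All levels are shares of a library, so fewer of these bacteria and more of others in a stool sample cannot be told apart. Before DSS, their summed share of a library with GPR15L was 0.661%, 3.72% and 2.10%, with a mean of 2.16% ± 1.53 (SD, n = 3). With PBS before DSS it was 8.30%, 3.30% and 11.6%, with a mean of 7.72% ± 4.16 (n = 3). The ranges overlapped only through library 2 of the GPR15L arm and library 5 of the PBS arm. With GPR15L after DSS it was 4.01%, 2.65%, 0.963% and 1.01%, with a mean of 2.16% ± 1.46 (n = 4). With PBS after DSS it was 2.45%, 2.83%, 14.9% and 4.28%, with a mean of 6.12% ± 5.92 (n = 4). Library 14 lay far above its group, and without it that mean was 3.18%. Without library 1 the mean of the GPR15L arm before DSS was 2.91%, and without library 2 it was 1.38%.

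The summed share was tested as 1 of 79 genera or lowest named ranks, by quasi-likelihood in edgeR, the p-values adjusted over all 79 after Benjamini and Hochberg. After DSS the log2 fold change of GPR15L over PBS was -1.39 ± 0.69 (SE, adjusted p = 0.219), and before DSS it was -1.16 ± 0.79 (adjusted p = 0.460). Over the course of DSS it was -0.35 ± 0.72 in the PBS arm (adjusted p = 0.768) and -0.59 ± 0.72 in the GPR15L arm (adjusted p = 0.706). The interaction of arm and time was -0.23 ± 1.03 (adjusted p = 1.000). None of these 5 comparisons passed 0.05. Single libraries moved them widely, and the scaling moved some of them. The value after DSS was -0.78 without library 14. Before DSS it was -0.54 without library 6, -0.74 without library 1 and -2.22 without library 4. In the PBS arm over DSS it was -1.53 without library 4, -0.97 without library 14, -0.64 without library 5, -0.20 without library 13 or 15 and -0.13 without library 12, and it turned to 0.27 without library 6. In the GPR15L arm it was -0.03 without library 3, -1.01 without library 1 and -0.98 without library 8. In place of the main scaling (TMMwsp), TMM gave -1.68 before DSS, -0.96 in the PBS arm and -0.74 in the GPR15L arm over DSS. Library totals alone gave -1.84, -0.34 and -0.00 in that order, and DESeq2 gave -1.72, -0.91 and -0.46. After DSS they gave -1.46, -1.50 and -1.26. Mean shares in the GPR15L arm were 2.16% at both times, so the fitted -0.59 there depends on the scaling. The interaction had no stable sign: it was above 0 without library 3, 4, 5 or 14, with library 7 as titled (0.07), and with TMM, library totals, DESeq2, limma voom or no count filter, up to 0.74 without library 4.

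**Figure D1:**
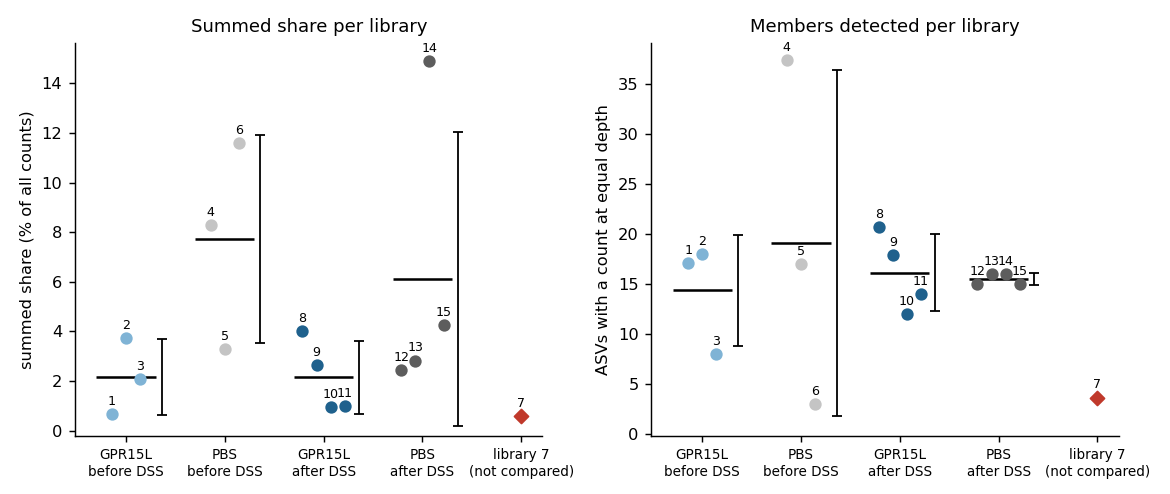
Left, the summed share of the 66 members in percent of all counts of a library, and right, the expected number of members with a count when each library is thinned to 48847 counts. Points are libraries with their numbers, horizontal lines are group means, error bars are SD and the diamond is library 7, which entered no comparison. Library 14 stands at 14.9% in the left panel, and libraries 4 and 6 at 37.4 and 2.99 members in the right panel.

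The number of members per library was compared at 48847 counts, the lowest total. It was 14.4 ± 5.54 (SD, n = 3) in the GPR15L arm before DSS, 19.1 ± 17.3 (n = 3) in the PBS arm before DSS, 16.2 ± 3.91 (n = 4) in the GPR15L arm after DSS and 15.5 ± 0.577 (n = 4) in the PBS arm after DSS. The wide spread in the PBS arm before DSS came from library 4, with 37.4 members, and library 6, with 2.99. Without library 4 its mean was 9.99, and without library 6 it was 27.2. After DSS the means of the arms lay within 1 member of each other, and the libraries with PBS stood between 15.0 and 16.0.

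After DSS, with PBS 22 members were found in all, and 11 of them in every library. With GPR15L 33 members were found in all, and 4 of them in every library (ASV81, ASV132, ASV161 and ASV276). Thinning each library to the lowest depth left these numbers at 22.0 and 11.0 with PBS and at 32.7 and 4.00 with GPR15L. Over all ASVs, 52.2% of the 245 found with PBS and 38.5% of the 239 found with GPR15L were in every library of the arm, against 12.1% of the members found with GPR15L. With library 7 as titled, 24 members were found with PBS and 1 of them (ASV17) in every library, or 4.17%. Over all ASVs that share fell as well, from 52.2% to 16.7% of the 275 found. The order of the arms in members found in every library thus rests on leaving that library out. With it, a member had to be in more libraries with PBS than with GPR15L to be counted. The order in members found in all did not change, at 33 with GPR15L and 24 with PBS. These counts were not tested.

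Arms shared 12 members after DSS, which was 36.4% of those found with GPR15L and 54.5% of those found with PBS, against 55.2% and 53.9% over all ASVs. Before DSS they shared 25, which was 96.2% and 64.1%, against 78.9% and 68.5% over all ASVs. Within the GPR15L arm 10 members were found at both times, 38.5% of those present before and 30.3% of those present after DSS (46.2% and 54.0% over all ASVs). Within the PBS arm 17 were found at both times, 43.6% of those present before and 77.3% of those present after (57.9% and 75.9% over all ASVs).

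Of the 66 members 9 had a count in all 4 groups, 8 in 3 groups, 12 in 2 groups and 36 in 1 group, and 1 (ASV466) was found in library 7 alone. The GPR15L arm after DSS was the sole group for 20 members (30.3%, against 15.4% of all 507 ASVs), 13 of which were in 1 library and 12 of which reached 10 counts. They made up 0.403% ± 0.222 (SD, n = 4) of counts there and 13.5% of the member counts. The PBS arm before DSS was the sole group for 11, the PBS arm after DSS for 4 and the GPR15L arm before DSS for 1 (16.7%, 6.06% and 1.52%, against 11.8%, 6.31% and 8.09% of all ASVs). No member was found in all 15 libraries, and 28 were found in 1, of which 9 were in library 4.

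**Figure D2:**
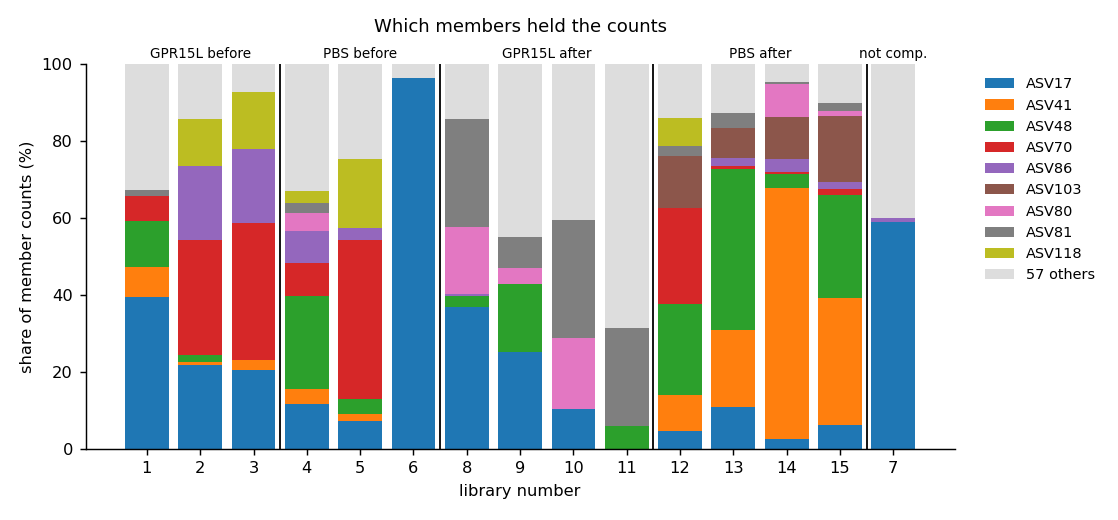
Share of the member counts of each library, in percent, held by the 9 members with the highest mean share and by the 57 others together. Bars are libraries, ordered by group, with library 7 last. ASV17 fills 96.5% of the bar of library 6 and ASV41 65.2% of that of library 14, while ASV252, within the 57 others, holds 31.5% in library 11.

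Few members carried most of the counts. The 12 with the highest mean of the 4 group means held 88.5% of member counts, and ASV17, ASV41, ASV48 and ASV70 led them. The leading member changed between libraries. ASV17 led in libraries 1, 6, 7, 8 and 9, ASV70 in libraries 2, 3, 5 and 12, ASV48 in libraries 4 and 13, ASV41 in libraries 14 and 15, ASV81 in library 10 and ASV252 in library 11. ASV252 had 0.316% of counts in library 11 and 0.00623% in library 8, with no count elsewhere.

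ASV17 was the most widespread member, found in 14 of 15 libraries. Its share was 0.260%, 0.815% and 0.432% in the GPR15L arm before DSS and 0.973%, 0.242% and 11.2% in the PBS arm before DSS. It was 1.48%, 0.665%, 0.0989% and 0 in the GPR15L arm after DSS, and 0.113%, 0.310%, 0.389% and 0.265% in the PBS arm after DSS. Library 6 alone stood above 2%, and the groups overlapped in all 4 pairs compared. The mean of its group was 4.12% with library 6 and 0.607% without it. ASV17 did not pass the threshold in any of the 5 comparisons.

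For single members, the quasi-likelihood test of edgeR ran over 282 ASVs, with a threshold of 0.05 after Benjamini-Hochberg adjustment. Of the 66 members 27 had at least 10 counts and a count in 3 or more of the 14 libraries, and they held 96.4% of the member counts. Of the 39 others, 27 were found in 1 of the 14 libraries, 11 in 2 and 1 in none of them. The highest share of any of these 39 was 0.413%, that of ASV154 in library 4.

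**Figure D3:**
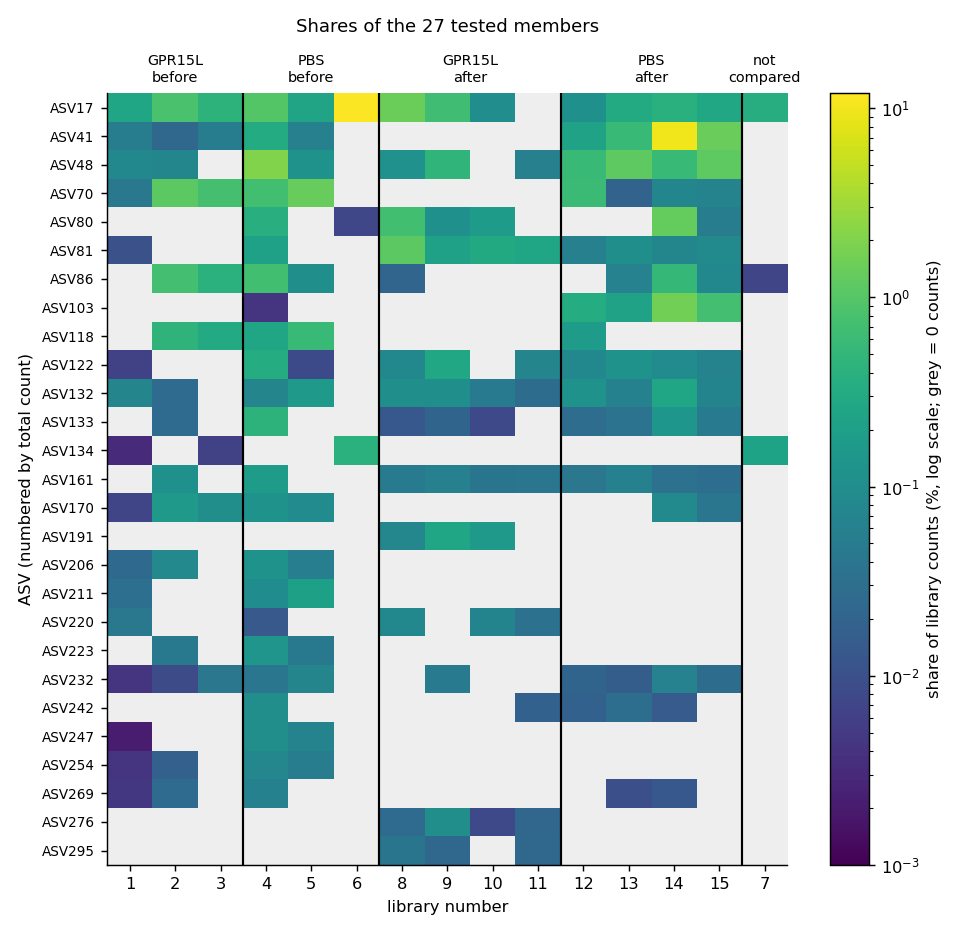
Share of library counts, in percent on a log colour scale, of the 27 tested members (rows) in the 15 libraries (columns), grouped by arm and time with library 7 last. Grey cells have no count. In the GPR15L arm after DSS the rows of ASV41, ASV70 and ASV103 are grey in all 4 libraries, while they are coloured in all 4 libraries with PBS.

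The comparison nearest to the question of the series, how rectal GPR15L and placebo differ in colitis, is that of the arms after DSS. Between them 6 of the 27 tested members passed, 3 higher and 3 lower with GPR15L. Over all ASVs 28.0% passed (10.6% higher and 17.4% lower), so 22.2% of the members is near the background. Of these 6, ASV41 and ASV70 had counts in 5 libraries outside the arm where they were high. ASV103 had them in 1 and the 3 higher members in 0, so these 4 met the test's minimum of 3 libraries only through the arm in which they were high. Their p-values are given as a description, and the count of 6 supports nothing about the members. Scaled by library totals alone, 2 were higher and 3 lower, against 24 and 51 of all 282 tested ASVs. With TMM scaling 3 were higher and 4 lower, against 29 and 60. With library 7 as titled 4 were higher and 3 lower. The count was 3 without library 13, 14 or 15, the same 3 lower members each time. The median log2 fold change of the 21 tested members with a count in either arm was -1.36, and that of the 248 such ASVs over the whole table was -0.22. Both medians were the same with ASVs at 0 in 1 arm put at their bound.

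ASV41 was the member with the highest share in the PBS arm after DSS. It made up 0.228%, 0.564%, 9.72% and 1.41% of counts in the 4 libraries with PBS and had no count in the 4 libraries with GPR15L. The arms did not overlap, and 1 library with PBS held most of the counts. The mean with PBS was 2.98% ± 4.52 (SD, n = 4), at least 3270-fold higher than with GPR15L (edgeR adjusted p = 0.00426). Without library 14 the mean was 0.735%, at least 806-fold higher.

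ASV103 made up 0.333%, 0.220%, 1.60% and 0.731% with PBS and had no count with GPR15L, so that again the arms did not overlap. The PBS mean of 0.721% ± 0.624 (n = 4) exceeded the GPR15L arm at least 790-fold (edgeR adjusted p = 0.00513), or at least 470-fold with a mean of 0.428% without library 14. ASV70 made up 0.610%, 0.0200%, 0.0737% and 0.0671% with PBS and was at 0 in all 4 libraries with GPR15L. Library 12 was the high one here, not library 14. The PBS mean of 0.193% ± 0.279 (n = 4) exceeded the GPR15L arm at least 211-fold (edgeR adjusted p = 0.0170), and without library 12 it was 0.0536%, at least 58.8-fold higher. ASV41, ASV70 and ASV103 passed in all 24 alternative settings run, with library 7 as titled among them, and library 7 had no count of any of the 3. For ASV103 that number is a description alone, since it entered the test through the PBS arm.

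**Figure D4:**
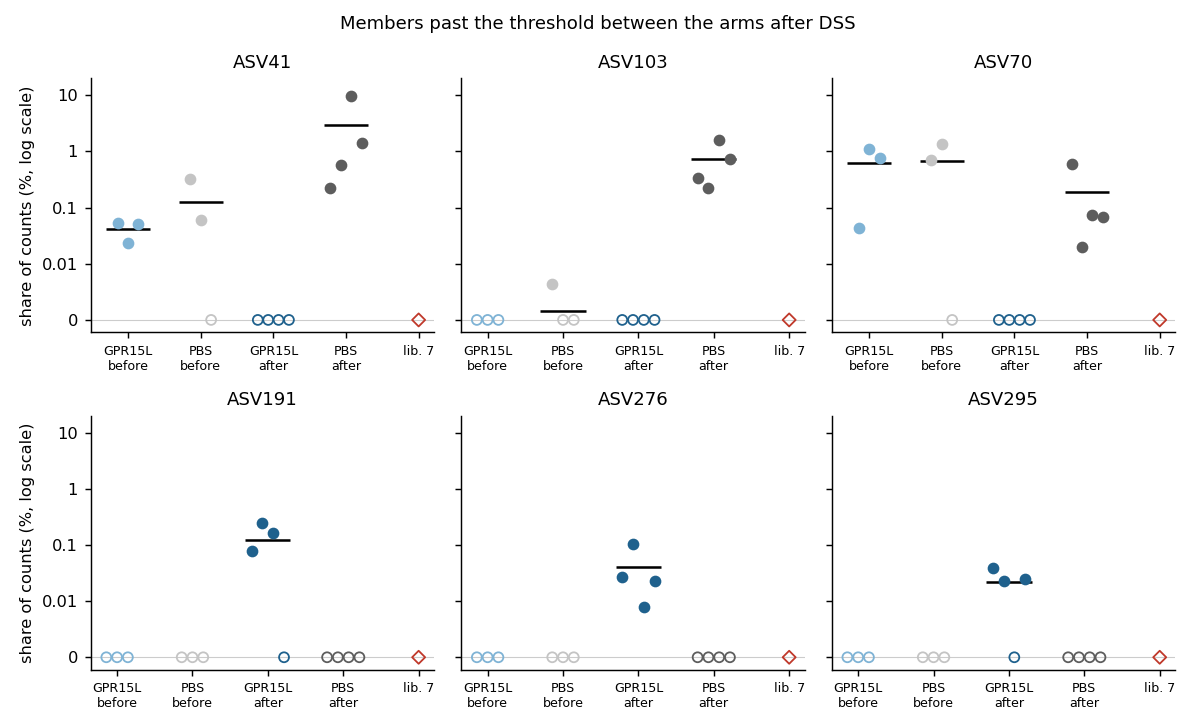
Shares in percent on a log axis of the 6 members past the threshold between the arms after DSS, in each library of the 4 groups. Filled points are libraries, open points on the line marked 0 are libraries with no count, horizontal bars are group means (n = 3 before and n = 4 after DSS) and the diamond is library 7. The upper row was absent with GPR15L after DSS, and the lower row was found in the GPR15L arm after DSS and in no other group.

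The 3 members higher with GPR15L after DSS were found in no library outside that group. ASV191 made up 0.0783%, 0.251% and 0.161% in libraries 8 to 10 and had no count in library 11. Its mean of 0.123% ± 0.108 (SD, n = 4) was at least 95.4-fold above the PBS arm (edgeR adjusted p = 0.0329), or 62.1-fold with a mean of 0.0798% without library 9. ASV276 was in every library with GPR15L, at 0.0270%, 0.102%, 0.00797% and 0.0225%. Its mean of 0.0399% ± 0.0422 was at least 31.0-fold above the PBS arm (edgeR adjusted p = 0.0285), or 14.9-fold with a mean of 0.0191% without library 9. ASV295 was found in libraries 8, 9 and 11, at 0.0388%, 0.0233% and 0.0243%. Its mean of 0.0216% ± 0.0160 was at least 16.8-fold above the PBS arm (edgeR adjusted p = 0.0491). All 3 were thus small parts of the community. They entered the test only through this arm, and even so their calls could be lost. ASV191 lost its call without any of libraries 12 to 15, with adjusted p up to 0.0709. ASV276 lost it without library 13, 14 or 15 or without the count filter, with adjusted p up to 0.0920. ASV295 lost it in 11 settings, scaling by library totals and DESeq2 among them, with adjusted p up to 0.202. Without library 8, 9 or 10 ASV191 fell under the minimum of 3 libraries and was not tested. The same held for ASV295 without library 8, 9 or 11.

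Of the 43 members with a count in either arm after DSS, shares of the arms did not overlap for 7, against 24.7% over all ASVs. Besides ASV41, ASV70, ASV103 and ASV276 these were ASV48, ASV81 and ASV133, and none of these 3 passed the test. ASV48 made up 0.114%, 0.472%, 0 and 0.0599% with GPR15L and 0.582%, 1.18%, 0.553% and 1.15% in the PBS arm (log2 fold change of GPR15L over PBS -2.57 ± 1.82 SE, adjusted p = 0.305 with edgeR). ASV81 lay the other way, at 1.13%, 0.214%, 0.297% and 0.256% with GPR15L and at 0.0603%, 0.108%, 0.0737% and 0.0862% with PBS (2.81 ± 1.79 SE, edgeR adjusted p = 0.254). ASV133 made up at most 0.0204% with GPR15L and 0.0283% to 0.139% with PBS (-2.30 ± 2.16 SE, edgeR adjusted p = 0.500). In every library of PBS and none of GPR15L were 3 of the 43 members, against 11.6% of all ASVs, and in every library of GPR15L and none of PBS was 1, against 5.11%. With library 7 as titled the first count was 0, since that library held none of the 3. Shares of the arms then did not overlap for 2 of 45 members (ASV81 and ASV276), against 5.43% of all ASVs.

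Other leading members gave no call between the arms after DSS. ASV80 had means of 0.246% ± 0.309 with GPR15L and 0.337% ± 0.639 with PBS (edgeR adjusted p = 1.00), and without library 14 the mean with PBS was 0.0181%, which puts GPR15L above. ASV86 was at 0.0215% in library 8 and at 0 in the others of the GPR15L arm, and at 0, 0.0639%, 0.523% and 0.0815% with PBS (edgeR adjusted p = 0.189). ASV118 was at 0 with GPR15L and found in library 12 alone with PBS, at 0.181% (adjusted p = 0.0792). ASV122 and ASV132 had log2 fold changes of 0.19 ± 1.86 and -0.45 ± 1.61 (SE), errors too wide to show that their levels were alike.

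Before DSS the arms had not yet received the peptide. None of the 27 tested members passed between them with edgeR, and 2 had an unadjusted p under 0.05, against 50 of the 282 tested ASVs. Of all ASVs 1.77% passed, 1.42% higher and 0.355% lower with GPR15L. DESeq2 and edgeR without the count filter each called 1 member, ASV80, and limma voom called 0. ASV80 was at 0.371% and 0.00752% in libraries 4 and 6 and had no count in the other 4 libraries before DSS. ASV41 and ASV70, which differed between the arms after DSS, were present in both arms before it. ASV41 made up 0.0527%, 0.0233% and 0.0510% in the GPR15L arm and 0.323%, 0.0594% and 0 in the PBS arm. ASV70 made up 0.0425%, 1.11% and 0.751% in the GPR15L arm and 0.702%, 1.36% and 0 in the PBS arm. Their ranges overlapped, and library 6, which held 3 members, was the one without either. ASV103 had 7 counts before DSS, all in library 4. Shares of the arms before DSS separated without overlap for 0 of 40 members with a count, against 7.63% of all ASVs. In every library of 1 arm and none of the other were again 0 of the 40, against 2.11% of all ASVs for GPR15L and 0.263% for PBS. The median log2 fold change of GPR15L over PBS was -2.18 over the 24 tested members with a count in either arm (-1.46 with members at 0 in 1 arm put at their bound) and -0.63 over the 254 such ASVs (-0.62). The corresponding median after DSS was -1.36. Over all 282 tested ASVs, those without a count included, the median before DSS was -0.37, and -0.49 when scaled by library totals alone.

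Over DSS in the GPR15L arm 6 of the 27 tested members passed, 2 higher and 4 lower after DSS, against 28.4% over all ASVs (8.87% higher and 19.5% lower). This comparison uses the same 4 libraries with GPR15L as the comparison of arms after DSS, so it is not a second measurement of them. The 4 lower members were ASV41, ASV70, ASV118 and ASV170, and each was at 0 in all 4 libraries after DSS. ASV70 fell from 0.634% ± 0.543 (SD, n = 3), at least 696-fold (edgeR adjusted p = 0.0120), or 435-fold without library 2, and passed in all 24 alternative settings. ASV41 fell from 0.0423% ± 0.0165 (n = 3), at least 46.4-fold (edgeR adjusted p = 0.0241), and lost its call without library 8, 9 or 10 (adjusted p up to 0.0629). Of 49 members with a count in this arm, 5 (ASV41, ASV70, ASV81, ASV170 and ASV276) had shares that did not overlap between the times, against 21.3% of all ASVs. In every library before DSS and none after were 3 (ASV41, ASV70 and ASV170), against 10.3%, and 1 (ASV276) was the reverse, against 3.34%.

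The other 4 calls in that arm were weaker. ASV118 was at 0, 0.456% and 0.309% before DSS (mean 0.255% ± 0.233), at least 280-fold above the level after DSS (edgeR adjusted p = 0.0494), and its mean was 0.155% without library 2. ASV170 was at 0.00709%, 0.153% and 0.104% (mean 0.0878% ± 0.0741), at least 96.4-fold above (edgeR adjusted p = 0.0466), and its mean was 0.0554% without library 2. ASV191 and ASV276, absent before DSS, were at least 134-fold and 43.7-fold higher after it (edgeR adjusted p = 0.0484 for each), or 87.4-fold and 21.0-fold without library 9. They entered the test only through the libraries after DSS, so these p-values are a description. ASV118 and ASV170 passed in 7 of 24 and 11 of 23 alternative settings, with adjusted p up to 0.101 and 0.0887. ASV191 and ASV276 lost their calls in 14 of 20 and 15 of 23, with adjusted p up to 0.0973 and 0.140. Each lost its call with library 7 as titled (0.0630, 0.0630, 0.0661 and 0.0661), although that library is in neither group of this contrast. The count of 6 became 1 without library 8, 9 or 10, 3 without library 1 or 13 and 2 without library 2, 3, 5, 11, 12, 14 or 15. Scaled by library totals alone, 0 were higher and 3 lower, against 19 and 43 of all 282 tested ASVs. With TMM scaling 1 was higher and 4 lower, against 19 and 62. TMM moved the median of all ASVs from 0.0 to -0.2.

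Over DSS in the PBS arm 1 of the 27 tested members passed, and it was higher, against 4.26% over all ASVs (1.77% higher and 2.48% lower). ASV103 rose from 0.00144% ± 0.00249 (SD, n = 3), which is 7 counts in library 4, to 0.721% ± 0.624 (n = 4), with a log2 fold change of 8.72 ± 2.12 (SE, edgeR adjusted p = 0.0404). It too entered the test through the PBS libraries after DSS. It passed in 16 of 24 alternative settings and lost its call without library 4, 5, 12, 14 or 15, when scaled by library totals alone (0.0517) and with library 7 as titled (0.0919). ASV41 had means of 0.127% ± 0.172 before and 2.98% ± 4.52 after DSS in this arm and did not pass, and without library 4 the first was 0.0297%. ASV70, at 0.688% ± 0.681 before and 0.193% ± 0.279 after, did not pass either. Of 44 members with a count in this arm, 1 (ASV103) had shares before and after DSS that did not overlap, against 13.2% of all ASVs. With library 7 as titled none of 45 did, against 1.54%. In every library after DSS and none before, or the reverse, were 0 of the 44, against 2.89% and 1.05%.

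The interaction, the change over DSS with GPR15L less that with PBS, passed for 1 of 27 tested members, against 9.93% of all ASVs (3.55% higher and 6.38% lower). That count does not show that the other members had like courses in the arms. ASV103, ASV191, ASV276 and ASV295 were at 0 at both times in 1 arm, with fitted SE from 9738.05 to 14465.36. Members at 0 in both arms after DSS, such as ASV206 and ASV254, also had an SE too large for any call. For all of these the interaction could not be estimated. The 1 call was ASV41, on the lower side, and without library 4, 6 or 13 the count was 2. Its mean went from 0.0423% to 0 in the GPR15L arm and from 0.127% to 2.98% in the PBS arm, with a fitted log2 difference of -12.94 ± 2.95 (SE, edgeR adjusted p = 0.0161). The size of that fitted value rests on a group at 0 and bounds nothing. The call ended with library 7 as titled (adjusted p = 0.0582) and without library 5, and it held in 21 of 23 alternative settings. ASV70 did not pass the interaction (edgeR adjusted p = 0.0557), so its loss in the GPR15L arm is not shown to differ from its course in the PBS arm.

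A part of the members was seen at 1 time alone. Of the 66 members 22 had counts before DSS and none after, 25 the reverse, and 18 had both, which was 33.3%, 37.9% and 27.3%. Over all 507 ASVs these shares were 29.4%, 23.9% and 45.6%, and the difference was not tested. With library 7 as titled the members' counts were 21, 26 and 19, since it held ASV134 and ASV466. ASV206 is an example of the first kind, at 0.0248%, 0.0830%, 0.124% and 0.0553% in libraries 1, 2, 4 and 5 and at 0 in every library after DSS. ASV254 was in the same 4 libraries, at 0.00405% to 0.0777%. Neither passed over DSS in either arm (edgeR adjusted p between 0.0608 and 0.0966), and both were picked after their values were seen. The run of library names changed with time, and its part in these counts was not tested.

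Some members kept company over the libraries. Over the 14 libraries compared, the shares most like those of ASV41 were those of ASV103 (Spearman rho 0.86) and ASV48 (0.74). Those most like ASV48 were those of ASV122 and ASV133 (0.81 for each). ASV17 followed no other member as closely, with 0.40 for ASV80 and 0.37 for ASV86. These are descriptions over 14 libraries that share groups and library totals, and many of the points are at 0: ASV41 and ASV103 were both present in 5 libraries.

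Set beside the rest of the family, the members without a genus made up a varying part of it. They held 28.2% ± 5.18 (SD, n = 3) of Lachnospiraceae counts in the GPR15L arm before DSS, 36.4% ± 10.2 (n = 3) in the PBS arm before DSS, 17.8% ± 6.73 (n = 4) in the GPR15L arm after DSS and 31.7% ± 6.69 (n = 4) in the PBS arm after DSS. After DSS the arms overlapped by library 8 with GPR15L, at 25.7%, and library 13 with PBS, at 25.6%. The Lachnospiraceae NK4A136 group, a clade of the same family, had nearly equal means after DSS, 9.06% ± 7.47 of all counts with GPR15L and 9.24% ± 5.95 with PBS. Genera of the family with other names were at 1.55% ± 1.14 and 0.529% ± 0.200.

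Calls between the arms after DSS in the related groups were 5 higher and 3 lower of 29 tested ASVs in the NK4A136 group, 1 higher and 3 lower of 13 in Lachnospiraceae Incertae Sedis, and 5 higher and 2 lower of 31 in the other named genera. Among other families of the class, 5 ASVs were higher and 12 lower of 39 in Oscillospiraceae, and 1 higher and 4 lower of 20 in Ruminococcaceae with Butyricicoccaceae. In the Clostridia vadinBB60 group, an order of the class in this taxonomy, 10 were lower of 13. Muribaculaceae without a genus, of another phylum, had 1 higher and 9 lower of 41. The members' 3 higher and 3 lower of 27 were not tested against any of these, and no difference between the groups is claimed.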

How the data were processed

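Stool DNA gave V4 amplicons of the 16S rRNA gene, after 25 PCR cycles and with paired reads of 151 bases, per the labels' protocols. The authors deposited 1 table of raw counts, whole numbers of reads for each ASV and library. DADA2 appears in the deposited table's name; for its version, filters and taxonomy database, a statement is not given in the sources used here. Per the submitters' processing notes R 4.5.1 and limma were used, in a role not stated. The table held 3697 ASVs, 3190 of them at 0 in all libraries.

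Groups followed the titles and treatment labels. Shares are percent of a library's counts. ASVs with at least 10 counts and a count in 3 or more of the 14 libraries, and counts summed per genus or lowest named rank, were fitted in edgeR 4.0.16 (R 4.3.3; 1 mean per group, TMMwsp scaling, quasi-likelihood test, Benjamini-Hochberg adjustment at 0.05). SE is the log2 fold change over the square root of F. The counts at equal depth are hypergeometric expectations. The test was also run on simulated counts in which changed ASVs differed 16-fold and no group was set to 0. That run does not bear on calls against a group at 0.

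Alternatives were TMM, total counts, DESeq2 1.42.0, limma 3.58.1 voom, no count filter, a 0.1% mean share filter, the 2 groups alone, library 7 as titled and each library left out. Chosen after the data were seen were edgeR's newer quasi-likelihood method, leaving out libraries 6 and 14 together, and counting Incertae Sedis rows as members. Members named are those past 0.05, the 12 with the highest mean of group means, those in every library of 1 group and none of the other, and the leader of each library. ASV134, ASV154, ASV206, ASV254 and ASV466 were named after their values were seen, and ASV161 as 1 of the 4 in every GPR15L library after DSS. The members and lists were chosen with earlier results of these data known. Sequences of the ASVs were not used here.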

Additional observations from a re-analysis of the deposited data

Results flagged for a closer look

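After DSS, groups of 4 libraries were examined for a library that stood apart by Dixon's criterion, in the summed share, the number of members and the shares of the named members. Of 29 such groups 9 were marked. The criterion's rate of 1 in 20 is for normally distributed values, which skewed shares with zeros are not. A member found in 1 of 4 libraries is always marked, so the number of marks cannot be set against that rate. The marks share libraries and are not independent. In the PBS arm library 14 stood apart in the summed share of the members (14.9%, the next library 4.28%), in ASV41 (9.72%, next 1.41%), in ASV86 (0.523%, next 0.0815%) and in ASV80 (1.30%, next 0.0543%). In the same arm library 12 stood apart in ASV70 (0.610%, next 0.0737%) and in ASV118 (0.181%, the others at 0). In the GPR15L arm library 8 stood apart in ASV81 (1.13%, next 0.297%) and in ASV86 (0.0215%, the others at 0), and library 11 in ASV252 (0.316%, next 0.00623%).

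The change of ASV41 over DSS differed between the arms by the interaction test, with a fitted log2 difference of -12.94 (edgeR adjusted p = 0.0161). The call was lost with library 7 as titled (adjusted p = 0.0582) and without library 5, and the fitted size rests on a group at 0.

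Library 7, which entered no comparison, held ASV134 at 0.232% (95% Wilson interval 0.211% to 0.257%), while the 4 libraries of the PBS arm after DSS had no count of it. ASV134 was at 0.397% in library 6 and at 0.00304% and 0.00638% in libraries 1 and 3.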

How the results depend on the processing

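No paired analysis was possible because the labels number the samples from 1 to 15, each number once, and do not say which samples share a mouse. The number of members past the threshold after DSS (6) became 3 with the 0.1% share filter and 10 with Incertae Sedis rows counted, and ranged from 3 to 8 over the libraries left out in turn. Before DSS (0) it was 1 with DESeq2 and 1 without the count filter, and 0 for each library left out. In the PBS arm over DSS (1) it was 0 with total counts, with library 7 as titled and without libraries 6 and 14, 2 with DESeq2 and with the 2 groups alone, 3 without the filter, 4 with voom and 6 with the newer quasi-likelihood method, and ranged from 0 to 1 over libraries left out. In the GPR15L arm (6) it was 3 with total counts and with the share filter, 2 with library 7 as titled, 10 without libraries 6 and 14 and 11 with the newer method, and ranged from 1 to 8. For the interaction (1) it was 2 with TMM, the share filter, the newer method, Incertae Sedis rows or without libraries 6 and 14, 4 without the filter, 5 with DESeq2 and with voom, 0 with library 7 as titled, and ranged from 0 to 2. The interaction of the summed share (log2 -0.23) turned to 0.22 with TMM, 0.33 with total counts, 0.46 with DESeq2, 0.18 with voom, 0.26 without the filter and 0.07 with library 7 as titled, and ranged from -0.85 to 0.74 over libraries left out. The summed share over DSS in the PBS arm ranged from -1.53 to 0.27. The summed share passed in none of its 124 alternatives. In the PBS arm after DSS the members at equal depth were 14.7 when members under 10 counts were left out and 13.1 with library 7 as titled. Over libraries left out they lay between 15.3 and 15.7 there, between 9.99 and 27.2 with PBS before DSS, between 12.6 and 17.6 with GPR15L before DSS and between 14.6 and 17.5 with GPR15L after DSS. The mean summed share ranged from 1.38% to 2.91%, 5.80% to 9.93%, 1.54% to 2.56% and 3.18% to 7.34% in the groups in the order GPR15L before, PBS before, GPR15L after and PBS after. The causes of these shifts were not tested. Calls over all ASVs are given above only for some changes of scaling, so no shift is read as particular to the members. Of 320 values of the 14 calls of named members under the alternatives, 230 still passed. None changed direction, but this is no check. Each call but that of ASV103 over DSS in the PBS arm rests on a group at 0, which fixes its direction. Depth limited what could be seen: a count of 0 over a group allows up to 0.00128% of counts.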

Other observations

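Library 7, titled as PBS after DSS and kept out of the comparisons, held 4 members in 167329 counts, with a summed share of 0.587% (95% Wilson interval 0.552% to 0.625%). These were ASV17 at 0.346% (0.319% to 0.375%), ASV134 at 0.232%, ASV86 at 0.00717% (0.00410% to 0.0125%) and ASV466 with 3 counts. At equal depth it held 3.63 members. Library 6, of the PBS arm before DSS, held 2.99, and the 4 libraries of the PBS arm after DSS between 15.0 and 16.0. Libraries 6 and 7 were the 2 in which ASV17 and ASV134 were the leading pair, with 96.5% and 3.43% of member counts in library 6 and 58.9% and 39.6% in library 7.

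Library 4, of the PBS arm before DSS, was the richest, with 38 members in 162266 counts and an effective number (inverse Simpson index of the members) of 9.90, against 1.07 in library 6 and 2.24 in library 14.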
